A study of Homo sapiens with 9 samples.

Results

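Ribosomes that halt in the middle of an mRNA are detected, taken apart and cleared by a dedicated set of factors, and 10 genes of this machinery are described here, namely PELO, HBS1L, ABCE1, NEMF, LTN1, ZNF598, ASCC3, ANKZF1, TCF25 and GTPBP1. They were chosen by name, and all 10 were listed in both tables that the authors deposited, out of 9157 transcripts in the table for PF8503, 8839 in the table for PF846 and 8775 in both. Ribosome profiling, which sequences the mRNA fragments that translating ribosomes protect from nuclease, was carried out in Huh-7 cells, a line from a human hepatocellular carcinoma. The 3 conditions were 1.5 μM PF8503 (PF-06378503), 1.5 μM PF846 (PF-06446846 in the design and respelled in the sample labels) and 0.5% DMSO as vehicle, all for 1 hr, with 3 replicates each and 9 libraries in all. PF8503 and PF846 are related compounds that halt translation of selected proteins while their nascent chains are still in the ribosome, so the question here was how the mRNAs of the rescue machinery itself were translated during a short exposure.

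The tables hold the authors' mean of each condition in normalized counts and no value of a single library. The depth per library is therefore unknown and no replicate error, interval or test could be computed from them, the columns of the authors' own comparisons were not used, and every log2 ratio below is log2 of the compound mean divided by the vehicle mean. Both compounds were set against the same vehicle libraries, and the table for PF8503 carries vehicle means 1.09-fold higher than the table for PF846, so levels are compared only inside a table. A footprint level is the product of how much mRNA there is and how many ribosomes sit on it, and in bulk lysates neither these nor the number of cells and the amount of RNA per cell can be told apart. The library names place the 9 libraries in 6 sequencing lanes, none of which held more than 1 condition, and an effect of lane cannot be told apart from one of compound. All 8 hepatocyte markers were listed, with vehicle means from 1296 to 212970 normalized counts in the table for PF8503. None of the 4 leukocyte, 4 erythroid and 3 stromal markers was listed, and of 3 endothelial markers PECAM1 was listed, at 170 normalized counts with vehicle.

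When a ribosome halts, the next ribosome on the same mRNA can run into it, and the collided pair is what the sensing factors recognise. A ribosome on which the peptide cannot be released is then split into its subunits, which leaves the nascent chain and its tRNA on the large subunit. The ribosome-associated quality control complex marks that chain with ubiquitin for destruction and frees it from the tRNA. PF8503 and PF846 hold the ribosome on certain chains, and the factors are known from work on many other causes of stalling. Whether collisions or the later steps followed in these cells was not measured here.

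The coding sequences of the 10 genes differ widely in GC3, the percent of codons with G or C at the third position, and GC3 orders some of the values below. The first 10 codons that the authors' counting region can include, codons 11 to 20 counted from the start codon, are printed for ABCE1 and ZNF598, which have the lowest and the highest GC3 of the 10 over the whole coding sequence, and for the partner proteins HBS1L and PELO, which lie on opposite sides of the median. The sequences were read from the GRCh38 build with the GENCODE canonical transcripts, 5′ to 3′ on the coding strand, with G or C at the third position of a codon in capitals. ABCE1 is read from chr4:145104443-145104472 on the plus strand, PELO from chr5:52800425-52800454 on the plus strand and ZNF598 from chr16:2009687-2009716 on the minus strand, each within 1 exon. The HBS1L codons lie on the minus strand of chromosome 6 in coding exons 1 and 2, joined across an intron, with outer bounds 135050631 and 135054661.
ABCE1: gtCaaCcatgaCaaatgtaaacctaaGaaa
HBS1L: aaCtaCgatgaagattttgaagatgatgat
PELO: gaCaatgcGggCcaGgtGacCctGgtCccC
ZNF598: cgCgcGgaCatGgaGgcGgaGgcGgcGgca
The capitals stand in 4 of the 10 codons of ABCE1, 2 of 10 in HBS1L, 9 of 10 in PELO and 9 of 10 in ZNF598. GC3 over the whole coding sequence was 31.4% in ABCE1, 33.3% in HBS1L, 68.8% in PELO and 80.5% in ZNF598. These 10 codons do not mirror the whole in every member. NEMF has G or C at the third position in 7 of 10 and LTN1 in 6 of 10, with GC3 of 33.3% and 34.7%.

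None of the 10 mRNAs changed by as much as 0.5 on the log2 scale with either compound. The same size was reached by 1.32% of all transcripts with PF8503 and by 0.475% with PF846. A limit of 0.25 was reached by none of the 10 either, against 8.02% of all transcripts with PF8503 and 3.79% with PF846. With shares this small, few or none of 10 genes would be past these limits at the background rate, and nothing is read from the counts about the machinery itself. The widest departures were a ratio of -0.15 for NEMF with PF8503 and 0.13 for ZNF598 with PF8503. The members' median was -0.040 with PF8503, where the median of all transcripts was 0.013, and -0.022 with PF846, where it was 0.00086. The median size of the ratio regardless of sign was 0.065 for the members and 0.077 for all transcripts with PF8503, and 0.046 and 0.057 with PF846. Values below 0 were found for 6 of 10 members with PF8503 and 7 of 10 with PF846, beside 45.3% and 49.7% of all transcripts.

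**Figure D1:**
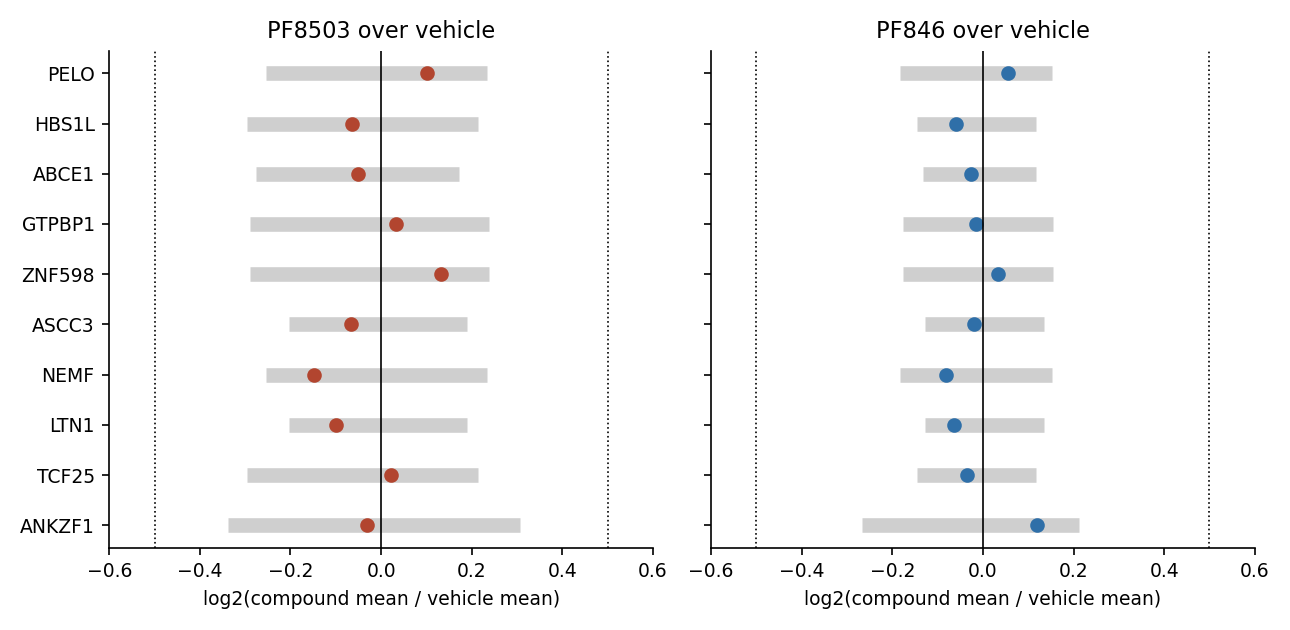
Log2 ratio of the authors' mean with compound over that with vehicle (horizontal axis) for each of the 10 genes (vertical axis), with PF8503 on the left and PF846 on the right. Grey bars span the central 95% of ratios of the transcripts in the same class of mean signal (10 equal classes), dotted lines mark -0.5 and 0.5, and all 20 points lie inside their bar.

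The spread of ratios depends on how many footprints a transcript has, and all transcripts were divided into 10 equal classes by mean signal and each gene was set beside its own class. All 10 genes lay inside the central 95% of their class with PF8503, and all 10 did with PF846. Summed over the 10 genes, the authors' means were 9459 normalized counts with vehicle and 9213 with PF8503, a log2 ratio of -0.038. In the table for PF846 the sums were 8658 with vehicle and 8486 with compound, a log2 ratio of -0.029. The 10 genes together held 0.0899% of the summed vehicle signal in either table.

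The factors that sense and take apart collided ribosomes are represented by ZNF598 and ASCC3. ZNF598 is the ubiquitin ligase that marks proteins of the small subunit on collided ribosomes. Its mean was 373 normalized counts with vehicle and 409 with PF8503, a log2 ratio of 0.13, and 84.9% of transcripts had a lower ratio. In the table for PF846 it was 342 with vehicle and 349 with compound, a log2 ratio of 0.032. ZNF598 was thus above vehicle with either compound and had the highest of the 10 ratios with PF8503. ASCC3 is the helicase of the complex that pulls the leading collided ribosome apart. Its mean was 1341 with vehicle and 1281 with PF8503, a log2 ratio of -0.067, and 1228 with vehicle and 1212 with PF846, a log2 ratio of -0.019. The ligase and the helicase therefore lay on opposite sides of 0 with either compound, each set against the same vehicle libraries. With PF8503 the values were 0.033 for ZNF598 and -0.0094 for ASCC3 after the setting for GC3 described further on. That setting lowers genes of high GC3 and raises genes of low GC3 with PF8503, so the smaller gap follows from it.

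PELO, HBS1L, ABCE1 and GTPBP1 form the group of splitting and recycling factors and their relatives. PELO resembles the release factor that reads stop codons but does not release the peptide, and it enters ribosomes with an empty A site. PELO had a mean of 456 with vehicle and 489 with PF8503 (log2 ratio 0.10), and of 417 with vehicle and 434 with PF846 (log2 ratio 0.056). HBS1L is the GTPase that delivers PELO to the ribosome. HBS1L had 1096 with vehicle and 1049 with PF8503 (log2 ratio -0.064), and 1004 with vehicle and 963 with PF846 (log2 ratio -0.060). The gene also encodes a shorter protein that bridges the exosome and the Ski complex, and footprints on the exons that the isoforms share cannot be assigned to one of them. The partners thus departed from vehicle in opposite directions, with a percent change of 7.31% for PELO and -4.33% for HBS1L with PF8503. After the setting for GC3 described further on, PELO had 0.050 and HBS1L -0.0064 with PF8503, and 0.049 and -0.050 with PF846. With PF8503 that setting lowers genes of high GC3 and raises genes of low GC3, so it must narrow such a gap.

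ABCE1 is the ATPase that pries the subunits apart, after normal termination as well as after rescue, and it was the most translated of the 10. Its mean was 2560 with vehicle and 2473 with PF8503 (log2 ratio -0.050), and 2343 with vehicle and 2302 with PF846 (log2 ratio -0.025). GTPBP1 is a GTPase related to HBS1L that has been tied to the resolution of paused ribosomes. It had 386 with vehicle and 396 with PF8503 (log2 ratio 0.034), and 354 with vehicle and 350 with PF846 (log2 ratio -0.015). ABCE1 was slightly below vehicle with either compound, and GTPBP1 was on either side of it.

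NEMF, LTN1, TCF25 and ANKZF1 act on the large subunit after splitting. NEMF binds the exposed peptidyl-tRNA, recruits the ligase and extends the stuck chain without a template. It had the lowest ratio of the 10 with either compound, with a mean of 565 with vehicle and 510 with PF8503 (log2 ratio -0.15), and of 517 with vehicle and 489 with PF846 (log2 ratio -0.081). With PF8503, 10.4% of transcripts had a lower ratio than NEMF, and with PF846 17.8% did. LTN1, also called Listerin, is the ubiquitin ligase that NEMF places beside the exit of the tunnel. It came next, with 1332 with vehicle and 1243 with PF8503 (log2 ratio -0.10), and 1220 with vehicle and 1166 with PF846 (log2 ratio -0.065). NEMF and LTN1 were therefore the lowest 2 of the 10 with either compound, with percent changes of -9.74% and -6.67% with PF8503 and -5.49% and -4.40% with PF846. Because the vehicle libraries are shared, the values with PF846 are not a second measurement of this order.

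TCF25 is the human relative of the yeast protein that directs the type of ubiquitin chain built on the stuck peptide. Its mean was 1179 with vehicle and 1197 with PF8503 (log2 ratio 0.022), and 1079 with vehicle and 1052 with PF846 (log2 ratio -0.036). ANKZF1 cuts the marked chain from its tRNA. It had the fewest footprints of the 10, with 170 with vehicle and 166 with PF8503 (log2 ratio -0.030), and 155 with vehicle and 169 with PF846 (log2 ratio 0.12). The ratio of ANKZF1 with PF846 was the highest of the 10 with that compound, and it was also found in a class of low signal and wide spread, where the central 95% ran from -0.27 to 0.21.

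The region of each mRNA that was counted could differ between the tables. The authors located the codon at which the cumulative profiles with and without compound separate most (DMax). They counted only 3′ of it whenever the Z score of that largest difference, taken over the transcripts, reached 2. Where the same codons were counted, the vehicle means of the tables differ by a constant factor, because the same vehicle libraries enter both. For the 10 genes the departure from that factor was at most 4.06e-05 on the log2 scale, so the same codons of each gene were counted in both tables. Of the 8775 transcripts in both tables, 134 departed by more than 0.002. The comparison does not tell where the shared region begins, only that it is shared.

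Per codon, the 10 genes differed far more from each other than any of them did between conditions. Vehicle means of the table for PF8503 were divided by the number of codons less the 10 at each end that the authors leave out, which gives normalized counts per codon. This takes the whole of that stretch as counted, and a gene counted only 3′ of DMax would have a higher level per codon than given here. ABCE1 stood highest at 4.42 per codon, above 84.5% of the transcripts with a known length. TCF25 at 1.80, HBS1L at 1.65 and PELO at 1.25 followed, and these 4 lay above the median of all transcripts, which was 0.872. LTN1 at 0.763, ASCC3 at 0.615, GTPBP1 at 0.595, NEMF at 0.535 and ZNF598 at 0.422 lay below it. ANKZF1 was lowest at 0.240, above 17.6% of transcripts. The highest exceeded the lowest 18.4-fold. PELO, its partner HBS1L and the splitting ATPase ABCE1 were thus in the upper part of the order together with TCF25. The lower part held the ubiquitin ligases ZNF598 and LTN1, the tRNA-cleaving ANKZF1, NEMF and ASCC3. It also held GTPBP1, which was grouped above with PELO, HBS1L and ABCE1.

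The vehicle means of the table for PF846 come from the same libraries and the same codons, so their order could not differ. The order was the same with the compound means of the table for PF846, and 8 of 10 genes kept their place with the means for PF8503. The exception was the closest pair, ASCC3 at 0.587 and GTPBP1 at 0.609 per codon with PF8503, which changed places. Without values of single libraries it cannot be said which other neighbours, such as HBS1L and TCF25, differ beyond the spread between replicates. The per-codon scale rests on the canonical transcripts of a newer annotation than the authors used, so a gene whose canonical transcript changed would be misplaced.

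**Figure D2:**
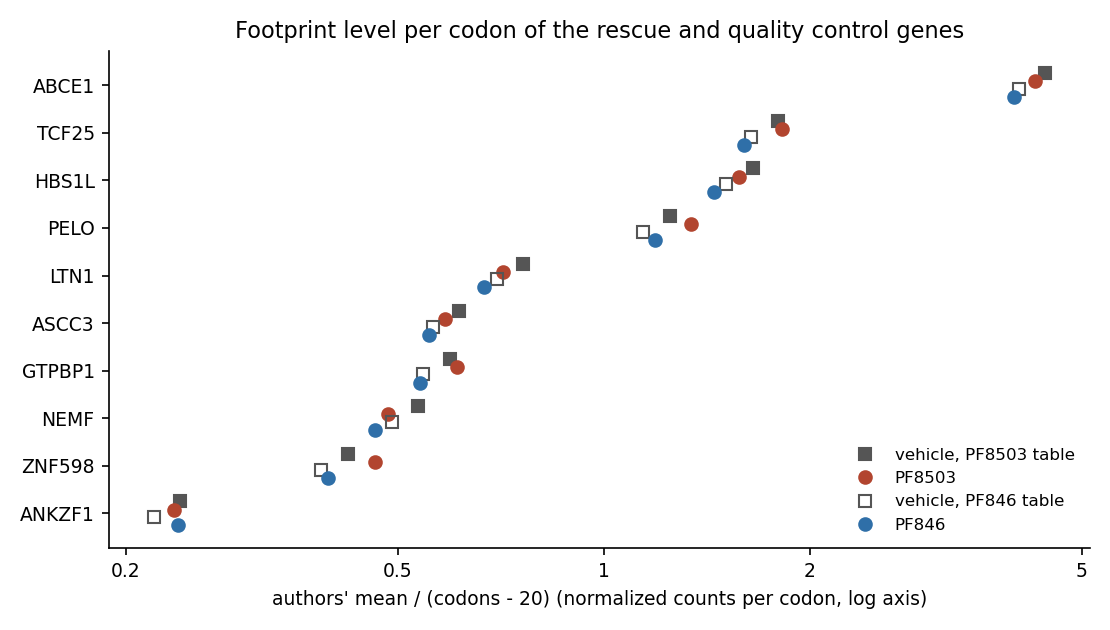
Authors' mean divided by the number of codons less 10 at each end (horizontal axis, normalized counts per codon, log scale) for the 10 genes (vertical axis, ordered by the vehicle mean). Squares are vehicle and circles are compound, filled or red for the table for PF8503 and open or blue for that for PF846, with no error because the tables hold means only. Vehicle levels in the table for PF8503 run from 4.42 for ABCE1 to 0.240 for ANKZF1, and the compound points lie close to the vehicle points of their own table.

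Factors that work as a complex or in a fixed order were set beside each other per codon, as ratios of means that carry no replicate error. HBS1L had 1.32-fold the vehicle level per codon of its partner PELO, and 1.18-fold with PF8503 and 1.22-fold with PF846. LTN1 had 1.43-fold the vehicle level of NEMF, and 1.47-fold with PF8503 and 1.44-fold with PF846. NEMF stood at 0.298-fold and LTN1 at 0.425-fold of TCF25 in the vehicle. With PF8503 these ratios to TCF25 were 0.265 and 0.390, and with PF846 they were 0.289 and 0.416. TCF25 thus stood above both NEMF and LTN1 in every condition. In the complex that takes collided ribosomes apart, the vehicle level per codon of ASCC1, ASCC2 and TRIP4 was 1.71-, 1.43- and 1.49-fold that of the helicase ASCC3. Release and rescue factors could be compared in the same way. ETF1, which reads stop codons, had 2.38-fold the vehicle level of its relative PELO, and GSPT1, the GTPase of termination, had 2.72-fold that of its relative HBS1L. VCP, the ATPase that extracts the ubiquitin-marked chain and has many other clients, had 27.3-fold the vehicle level of LTN1.

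With PF8503 the log2 ratios of the 10 genes were ordered largely by GC3. The 5 lowest values of GC3 were 31.4% in ABCE1, 33.3% in both NEMF and HBS1L, 34.7% in LTN1 and 34.9% in ASCC3. ANKZF1 had 53.9%, and PELO, GTPBP1, TCF25 and ZNF598 had 68.8%, 71.9%, 72.9% and 80.5%, where the median of all transcripts was 56.3%. With PF8503 all 6 genes under that median had a log2 ratio below 0, with a median of -0.065, and all 4 genes over it had one above 0, with a median of 0.068. With PF846, 5 of the 6 and 2 of the 4 were below 0, with medians of -0.043 and 0.0086. Over the 10 genes Spearman's rho between GC3 and the log2 ratio was 0.79 with PF8503 (Pearson's r 0.90) and 0.56 with PF846 (Pearson's r 0.50). The genes share libraries and are not independent, so these are descriptions, and the trend was looked at after the values were seen.

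The trend with PF8503 was not particular to the rescue machinery. Over 9118 transcripts with a coding sequence, rho was 0.44 with PF8503, and over 8802 it was 0.087 with PF846. Transcripts were again divided into 10 equal classes, now by GC3. In the class with the lowest GC3 the median log2 ratio with PF8503 was -0.057 and 73.4% were below 0, and in the class with the highest GC3 the median was 0.099 and 16.0% were below 0. With PF846 the medians of the lowest and the highest class were -0.0099 and 0.010. Vehicle cancels in the difference of the log2 ratios with PF8503 and PF846, and over 8740 transcripts rho for that difference was 0.39. After the median of its GC3 class was subtracted from each ratio, the members' median with PF8503 was -0.014, NEMF was lowest at -0.090 and PELO highest at 0.050. HBS1L went from -0.064 to -0.0064 and ASCC3 from -0.067 to -0.0094, PELO from 0.10 to that 0.050 and ZNF598 from 0.13 to 0.033. LTN1 went from -0.10 to -0.042 and was still next to NEMF as the lowest, and ANKZF1 from -0.030 to -0.033. Below 0 were 7 of the 10 genes after the subtraction and 6 before it. ABCE1 then had 0.0075, GTPBP1 -0.019 and TCF25 -0.030, each on the other side of 0 from its value before. The part of base composition in the ratios of single genes was not tested, and it cannot be told apart from lane.

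**Figure D3:**
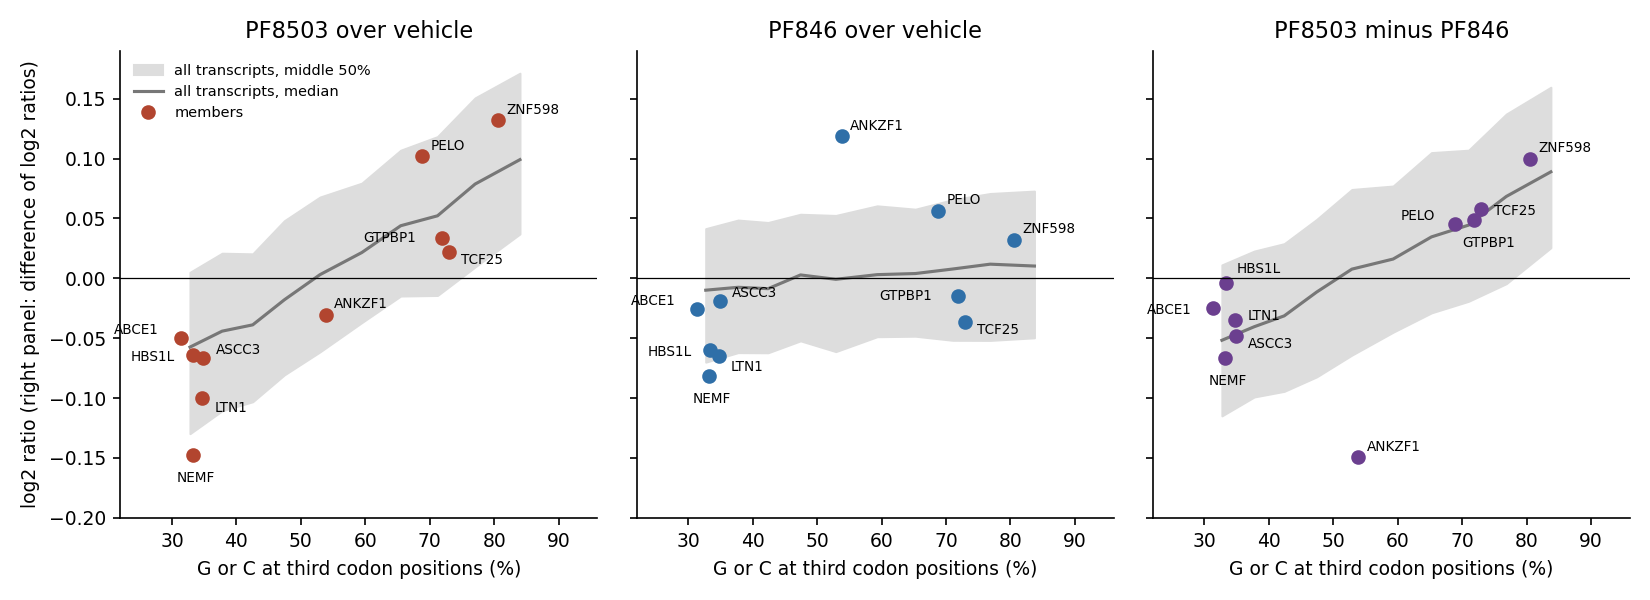
Log2 ratio (vertical axis, with the difference of log2 ratios in the right panel) against GC3, the percent of codons with G or C at the third position (horizontal axis). The line and the grey band are the median and the middle 50% of all transcripts in 10 equal classes of GC3, and the points are the 10 genes. With PF8503 the line runs from -0.057 to 0.099, and with PF846 it runs from -0.0099 to 0.010.

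Length and the character of the N-terminus also differed among the 10 proteins. Their coding sequences ranged from 385 codons in PELO to 2202 in ASCC3, with a median of 705 against 476 for all transcripts. The mean Kyte-Doolittle hydrophobicity of residues 2 to 30 ranged from -1.8 in HBS1L to 0.41 in ANKZF1, with a median of -0.84 against -0.37 for all, and 7 of the 10 lay below the median of all. On GRCh38, NEMF lies at chr14:49782083-49852821 and LTN1 at chr21:28928144-28992956, both on the minus strand, with 33 and 30 exons. PELO lies at chr5:52787916-52804044 on the plus strand and overlaps another coding gene, ITGA1, and the spans of ABCE1, NEMF, ANKZF1, TCF25 and GTPBP1 also overlap a coding neighbour. Reads with more than 1 position in the reference transcriptome had been left out by the authors.

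PF8503 and PF846 were used at the same dose and time, so the log2 ratios can be set beside each other, gene by gene, for 10 genes. The difference, PF8503 less PF846, was 0.10 for ZNF598, 0.058 for TCF25, 0.048 for GTPBP1 and 0.045 for PELO. It was -0.0042 for HBS1L, -0.024 for ABCE1, -0.035 for LTN1, -0.048 for ASCC3, -0.066 for NEMF and -0.15 for ANKZF1. The 4 genes with a difference above 0 were the 4 with the highest GC3. ANKZF1, the gene with the fewest footprints, had the widest difference, and 9.05% of transcripts had a lower one. All 10 differences lay inside the central 95% of the 8775 transcripts in both tables, which ran from -0.30 to 0.27. No test or interval of these differences can be had from means, so neither a difference between the compounds nor its absence is shown for any of the 10 genes.

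Around the 10 genes, 63 other genes of the same processes were looked up in 5 lists, of which 56 were listed with PF8503 and 57 with PF846. None was past 0.5 with either compound. With PF8503, 3 of the 56 were past 0.25, beside 8.02% of all transcripts, and 30 were below 0, beside 45.3%. With PF846 these counts were 0 of 57, beside 3.79%, and 33 of 57, beside 49.7%. The median of all listed genes was -0.0046 with PF8503 and -0.015 with PF846.

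Among 9 of 10 listed genes of collision sensing and disassembly, the median was 0.084 with PF8503 and 0.048 with PF846, with 2 and 3 of the 9 below 0. ASCC1, a small subunit of the complex that holds ASCC3, was lowest at -0.14 and -0.058. ASCC2, the subunit that binds the ubiquitin placed on collided ribosomes, had 649 with vehicle and 696 with PF8503 (log2 ratio 0.10), and 594 with vehicle and 615 with PF846 (log2 ratio 0.048). The highest were GIGYF1, a repressor of initiation on problem mRNAs, at 0.18 with PF8503, and GCN1, a sensor of collisions, at 0.098 with PF846. Of the 2 members that belong with this list, ZNF598 was above vehicle and ASCC3 below it with either compound. After the GC3 class medians were subtracted, the list's median was 0.048 with PF8503 and 0.041 with PF846.

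In the list of splitting and recycling, 6 of 7 genes were listed and the medians were -0.00071 with PF8503 and -0.036 with PF846. GTPBP2, the paralog of GTPBP1, was highest with either compound, at 0.10 and 0.13. EIF2D was lowest with PF8503 at -0.071, and DENR was lowest with PF846, with 485 with vehicle and 430 with compound (log2 ratio -0.18). Both help to clear tRNA and mRNA from the small subunit after splitting.

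Of the other genes of nascent-chain quality control, 9 of 11 were listed with PF8503 and 10 of 11 with PF846, with medians of -0.0066 and -0.0083. VCP was the highest at 0.045 with PF8503 and 0.058 with PF846. The lowest were RCHY1, a ligase for chains tagged by NEMF, at -0.19 with PF8503 and TRNT1, which rebuilds the end of tRNAs, at -0.082 with PF846.

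USP9X, a deubiquitinating enzyme known to act on ZNF598, stood apart among the 7 of 8 listed genes for ubiquitin on the small subunit. It had 1017 with vehicle and 731 with PF8503, a log2 ratio of -0.48 with 1.17% of transcripts lower, and 931 with vehicle and 834 with PF846, a log2 ratio of -0.16 with 6.13% lower. The same codons of USP9X were counted in both tables. The median of the list was 0.036 with PF8503 and -0.035 with PF846. RNF10, a ligase for small subunit proteins, was highest with either compound at 0.22 and 0.046, and RNF25, a ligase for ribosomes with a blocked factor, was lowest with PF846 at -0.17. USP9X was thus the widest departure among all 56 listed genes with PF8503, and it is named as the extreme of that many genes. Its GC3 is 34.0%, and its ratio with PF8503 was -0.42 after the median of its GC3 class was subtracted. The ratios with the compounds share the vehicle libraries, so the value with PF846 is not a second measurement.

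In the list of mRNA decay, 25 of 27 genes were listed and the medians were -0.031 with PF8503 and -0.016 with PF846. CNOT6L, a deadenylase, was lowest with PF8503 with 170 with vehicle and 142 with compound (log2 ratio -0.27). EXOSC6, a subunit of the exosome, was highest with 179 with vehicle and 218 with PF8503 (log2 ratio 0.28), and its GC3 is 91.5%. With PF846 the ends of the list were CNOT1, the scaffold of the deadenylase complex, at -0.14 and EXOSC7 at 0.17. Decay factors thus spread to both sides of 0 with either compound.

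**Figure D4:**
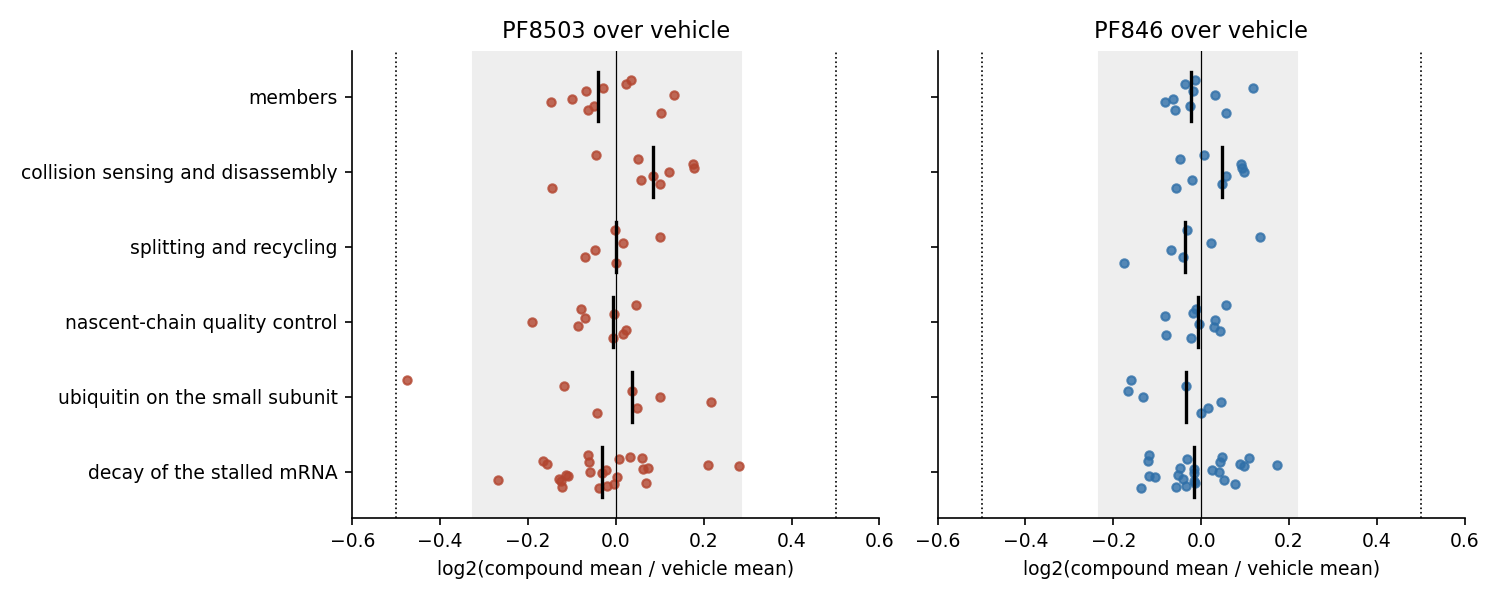
Log2 ratio of compound over vehicle (horizontal axis) for the 10 genes (members, top line) and for the listed genes of 5 related processes (vertical axis), with PF8503 on the left and PF846 on the right. Black ticks are medians, grey areas the central 95% of all transcripts (-0.32 to 0.28 and -0.23 to 0.22) and dotted lines -0.5 and 0.5, and the point outside the grey area is USP9X at -0.48 with PF8503.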

How the data were processed

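Ribosome profiling libraries of 3 conditions were processed by the authors, who trimmed adapters (FASTX toolkit), discarded ribosomal RNA reads, mapped what was left with Bowtie to the GRCh38 canonical coding transcripts of UCSC and GENCODE version 24, and kept reads with a single position. Versions of Bowtie and DESeq are not given in the sources used here. Reads were counted 3′ of DMax (Z score of at least 2) or from 10 codons after the start, without the last 10, and transcripts over 30 counts were kept. The deposited signal values (normalized counts) are the authors' condition means after scaling by DESeq size factors. Columns with the authors' fold changes, their log2 and p-values were not used. The replicate numbers in the authors' scripts differ from those in the labels, and it is not certain which libraries the means include.

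Computed here were log2 ratios of the means (no pseudocount), ranks, the central 95% in 10 equal classes of mean signal, levels per codon and base composition from GENCODE version 44 canonical transcripts on GRCh38, to which 9180 of 9221 symbols (99.6%) were matched. The 10 members, the lists and the rule for naming genes (all members, and from each list those past 0.5, otherwise the highest and lowest with each compound) were chosen with earlier results of these data known. ASCC2, TRIP4, ETF1 and GSPT1, list genes outside that rule, and PECAM1 were named after their values were seen. Alternatives were centring, scaling by summed means, a pseudocount of 10, a minimum mean of 100, transcripts with the same region and limits of 0.25 and 1. The steps were tested on simulated data. Python 3.11.15, numpy 2.4.6, pandas 2.3.3, biopython 1.88 and matplotlib 3.10.9 were used.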

Additional observations from a re-analysis of the deposited data

How the results depend on the processing

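Under centring on the median, scaling by the summed means, a pseudocount of 10, a minimum mean of 100 and transcripts counted over the same region, the members' median log2 ratio ran from -0.053 to -0.035 with PF8503 and from -0.023 to -0.021 with PF846. None of the 10 genes changed sign under these settings, and the count past 0.5 was 0 under each of them, as it was at limits of 0.25 and 1. The minimum mean and the shared region left out none of the 10 genes, so they could not change a value. Centring and scaling moved every gene of a table by the same amount. A limit of 1 cannot be reached where 0.25 is not. The widest shift of a single gene was 0.013 with PF8503 and 0.0069 with PF846. The difference between compounds moved by at most 0.011 when the compound means were compared directly and centred. The shared vehicle cancels in that difference, so every gene moved by nearly the same amount, and this is no check of the differences. Subtracting the median of the transcripts in the same class of GC3, a setting added after the values were seen, gave a members' median of -0.014 with PF8503 and -0.019 with PF846 and changed the sign of ABCE1, GTPBP1 and TCF25 with PF8503. With no replicate spread, a shift was judged against the spread of ratios over all transcripts. No paired analysis was possible because the tables hold means and no value of a single library. Leaving out a replicate could not be run for the same reason. ANKZF1, with the fewest footprints, is limited most by depth.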
